A study of Mus musculus with 298 samples.

Results

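The 95 cells described here came from the suprachiasmatic nucleus (SCN) of the mouse, the daily pacemaker in the hypothalamus, and carried at least 100 CPM of Avp and less than 100 CPM of Vip. CPM is the usual depth-scaled unit, the read count of a gene relative to all counts of its cell. They were chosen from 297 distinct cells by these Avp and Vip levels alone, so those levels describe the choice and are not a result. The 147 cells below 100 CPM of both genes served as reference cells. A further 48 cells had Vip without Avp (Vip cells), and 7 had at least 100 CPM of both.

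Each library was made from cytoplasm drawn from a single neuron into a patch pipette, after its firing had been recorded in a brain slice. Many libraries also held RNA of glia, as given below. The mice were kept with 12 h light and 12 h darkness each day. Slices for day cells were cut near ZT 0, which is lights on, and slices for night cells near ZT 12. Labels divide the cells into day and night, into active, silent and depolarized neurons by their firing, and into cFOS+ and cFOS-. Genotype, strain, age, any treatment and the scoring of cFOS are not stated in the labels. Several cells could come from the same slice, and the labels name neither animal nor slice. Cells are not replicates, so each class counts as 1 sample: no p-value was computed, and 95% intervals cover counting error of reads, or treat cells as independent draws, and do not cover differences between animals.

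Avp encodes the precursor of arginine vasopressin, a peptide packed into dense-core vesicles together with its carrier, neurophysin. In the SCN, vasopressin neurons lie mainly in the dorsomedial shell, vasoactive intestinal peptide (Vip) neurons mainly in the ventral core that receives input from the retina, and nearly all SCN neurons release GABA. Avp transcription is driven by the CLOCK and BMAL1 proteins through E-box sequences, and vasopressin release follows the daily rhythm. Prok2 (the secreted peptide prokineticin 2), Rgs16 (a GTPase-activating protein that limits G protein signalling), Nms (the peptide neuromedin S) and Creb3l1 (a membrane-bound transcription factor of secretory cells) are known as genes of vasopressin neurons.

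Avp cells held 3239417 to 15923020 reads each, with a median of 6419116, against a median of 6271768 in reference cells. A median of 4247 genes was detected in an Avp cell, 4867 in a reference cell and 4378 in a Vip cell. The 2 libraries S70 and S71, both reference cells, had nearly identical profiles (correlation of log2 values 0.9995, next highest of 44253 pairs 0.696) and were averaged into 1 cell. Summed markers of neurons passed 100 CPM in all 95 Avp cells, and Gad1, which makes GABA, reached 10 CPM in 92.6% of them. Markers of magnocellular and paraventricular neurons, which also make vasopressin but lie outside the SCN, passed 100 CPM in summed level in 0 of 95 Avp cells (exact interval up to 3.81%) and in 28 of 147 reference cells. In Avp cells the paraventricular factors Otp and Sim1 were at 0.304 and 0.0388 pooled CPM, and the glutamate transporter Slc17a6 at 0.861 CPM. The 6 summed genes include Slc17a6, a gene of glutamate neurons in general, and 118 of 147 reference cells were below 10 CPM of it. A reference cell over 100 CPM in the sum is thus not shown to be magnocellular or paraventricular.

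Avp ranged from 108.9 to 50094 CPM across the 95 cells, with a median of 3132. In 24 cells it lay below 1000 CPM, in 55 between 1000 and 10000 CPM and in 16 at 10000 CPM or more, and the 3 highest cells held 28.2% of all Avp reads of the class. The lowest members had 108.9, 112.4 and 149.7 CPM, and the highest reference cells 86.1, 82.05 and 71.99 CPM. Of the 147 reference cells 101 had no Avp read and 10 had 10 CPM or more, so few cells stood near the threshold. The highest of these, S472 and S507, also held Prok2 and Nms, as given below. Vip reached at most 36.3 CPM in an Avp cell and was at 0 in 84 of them, whereas the lowest Vip level at or above its threshold was 221.0 CPM.

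**Figure D1:**
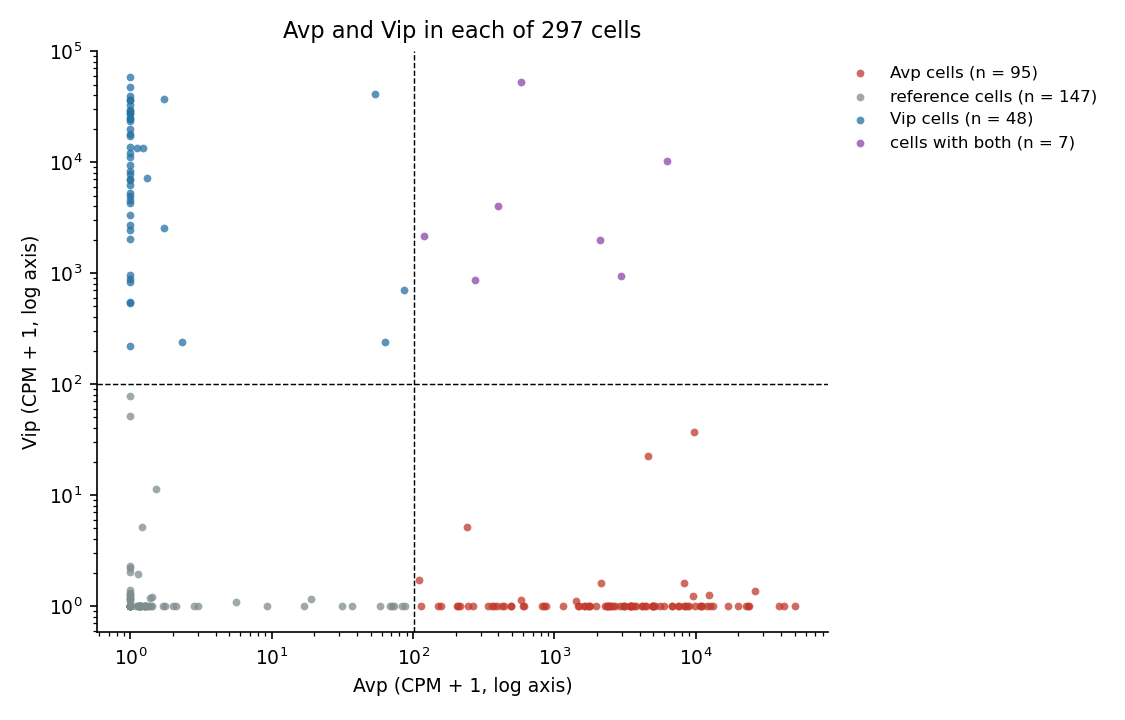
Avp (x axis) and Vip (y axis) in each of 297 cells as CPM plus 1 on log axes; each point is a cell, coloured by class, and dashed lines mark 100 CPM. The 95 Avp cells lie at the lower right, most of them at no Vip, and 7 cells lie above both lines.

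The share of Avp cells was 31.99% of all cells (95 of 297, exact 95% interval 26.72 to 37.62%). It was 36.03% of day cells (49 cells, 27.98 to 44.7%) and 28.57% of night cells (46 of 161, 21.74 to 36.21%). It was 27.27% of active cells (45 of 165, 20.64 to 34.74%) and 37.29% of silent cells (44 of 118, 28.56 to 46.67%). Among cFOS+ cells it was 31.08% and among cFOS- cells 33.11%. These shares are a description, and the differences between labels were not tested, since cells of 1 slice are not independent. Among the 14 depolarized cells 6 were Avp cells, too few to place. For Vip cells the shares were 22.42% of active and 6.78% of silent cells.

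**Figure D2:**
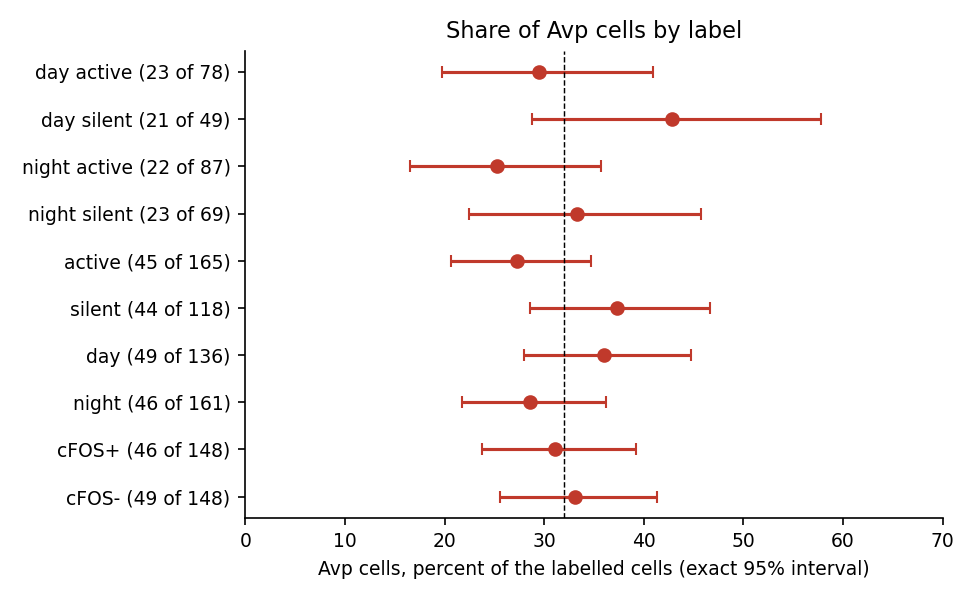
Avp cells as a percentage of the cells with each label (points) with exact 95% binomial intervals (bars); the dashed line marks the 31.99% of all cells. Every interval drawn includes that line.

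All 4 marker genes were higher in Avp cells than in reference cells, but each was found in only some of the Avp cells. For a class, reads were summed over its cells and given as pooled CPM, and ratios are log2 of (CPM + 1) over (CPM + 1); folds are on the same scale. Prok2 ran from 0 to 1412 CPM in Avp cells with a median of 0, and from 0 to 422.8 CPM with a median of 0 in reference cells. It reached 10 CPM in 31 of 95 Avp cells (32.6%, interval 23.36 to 43.02%) and in 8 of 147 reference cells (5.44%, 2.38 to 10.4%). The pooled level was 90.3 CPM against 12.3 CPM, a 6.88-fold difference. Nms was the most widespread marker: 57 of 95 Avp cells (60.0%) and 25 of 147 reference cells (17.01%) reached 10 CPM, with medians of 218.8 and 0 CPM and highest values of 7726 and 2816 CPM. Its pooled level was 565.9 CPM (exact Poisson interval 564.1 to 567.7) against 126.4 CPM (125.7 to 127.1), 4.45-fold. The typical Avp cell thus held Nms and the typical reference cell did not. The highest Prok2 values of reference cells were those of S472 and S507, the reference cells closest to the Avp threshold. S507 also had the highest Nms value of reference cells. Against the 134 reference cells below 10 CPM of both Avp and Vip, the log2 ratio of Prok2 was 4.04 in place of 2.78. For Nms it was 2.73 in place of 2.15, for Creb3l1 1.60 in place of 1.44 and for Rgs16 1.80 in place of 1.79.

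Rgs16 ran from 0 to 1037 CPM in Avp cells with a median of 0.220, and 37 of 95 cells (38.95%) reached 10 CPM against 27 of 147 reference cells (18.4%). The pooled level was 107.3 against 30.3 CPM, 3.46-fold. Creb3l1 reached 10 CPM in 27 of 95 Avp cells (28.4%) and 13 of 147 reference cells (8.84%), with pooled levels of 59.7 and 21.3 CPM, 2.72-fold. These 2 differences were not uniform: in night active cells Rgs16 was lower in Avp cells (log2 ratio -2.27), while in the 3 other combinations of time and firing it was higher (1.40 to 2.48). Creb3l1 had log2 ratios of 3.97 in day silent and 3.82 in night active cells but 0.30 in day active and -0.11 in night silent cells, and among cells with higher numbers in their titles (above their median) its ratio was -0.13. Nms was higher in all 4 combinations (1.58 to 2.84), and so was Prok2, from 0.12 in night silent to 7.11 in day silent cells.

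The 4 markers were also present in Vip cells. Pooled Prok2 was 69.0 CPM in the 48 Vip cells, Nms 915.2, Rgs16 118.1 and Creb3l1 87.4 CPM, and the shares of Vip cells at 10 CPM were 31.3%, 66.7%, 33.3% and 43.8%. Prok2 was the only one of the 4 with a higher pooled level in Avp than in Vip cells, by a log2 ratio of 0.38. Counting the 4 markers per cell, 24 of 95 Avp cells had none at 10 CPM, 26 had 1, 20 had 2, 14 had 3 and 11 had all 4. Of the 147 reference cells 96 had none and no cell had all 4, and of the 48 Vip cells 8 had none and 6 had all 4.

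**Figure D3:**
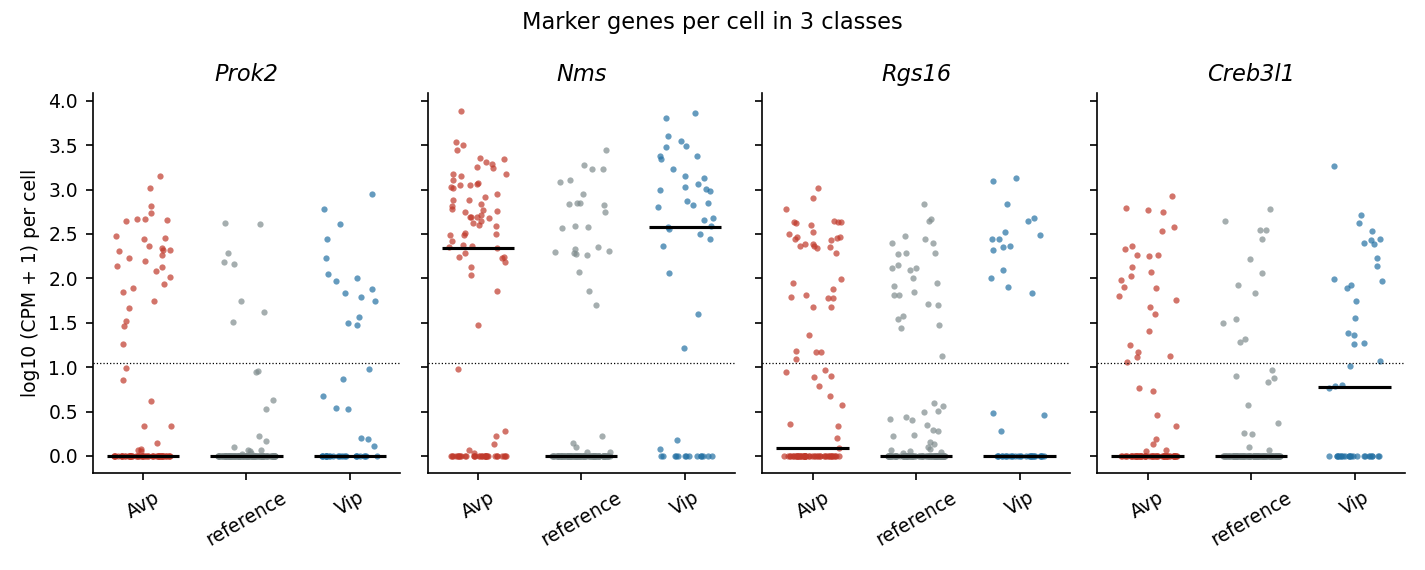
Prok2, Nms, Rgs16 and Creb3l1 as log10 of (CPM + 1) in each Avp (n = 95), reference (n = 147) and Vip (n = 48) cell; each point is a cell, the bar is the median and the dotted line marks 10 CPM. Avp and Vip cells both show many cells above the line for each gene, and most reference cells lie at 0.

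Within Avp cells all 4 markers were higher by day than by night, Prok2 and Rgs16 the most. Prok2 reached 10 CPM in 25 of 49 day cells and 6 of 46 night cells, with pooled levels of 154.6 and 18.5 CPM. Rgs16 did so in 27 of 49 day and 10 of 46 night cells, at 172.1 and 34.8 CPM. For Nms the numbers were 34 day and 23 night cells, at 709.9 and 404.8 CPM. For Creb3l1 they were 17 and 10 cells, at 81.35 and 35.41 CPM. Dbp, a clock output factor, was at 382.0 CPM by day and 39.4 by night, and Arntl, which encodes BMAL1, was at 152.3 by day and 330.4 by night. Avp itself had a median of 4898 CPM in day and 2378 CPM in night members. Over the 95 cells, Spearman correlations between the 4 markers ranged from 0.19 (Rgs16 and Creb3l1) to 0.53 (Prok2 and Creb3l1), and with Avp they were 0.20 for Prok2, 0.11 for Rgs16, 0.44 for Nms and 0.21 for Creb3l1. These describe cells that share time labels and depth.

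The level of Avp moved with some genes. Nms reached 10 CPM in 7 of the 24 cells below 1000 CPM of Avp, in 35 of the 55 cells between 1000 and 10000 CPM and in 15 of the 16 cells at 10000 CPM or more. Fbxl21 did so in 10, 34 and 14 of these cells, and Prex1 in 13, 40 and 14. Rgs16 showed no such order, with 10, 21 and 6 cells. Nor did Slc2a13 (16, 35 and 9 cells), Chodl (11, 40 and 10) or Grin2c (7, 26 and 5). Day and night cells were not separated in these counts. Among 2625 genes read in most Avp cells, the correlation with Avp exceeded 0.3 in size for 1.33% of genes, and the median was 0.035. The 10 highest were Oxt (0.70), Nnat (0.52), Nms (0.44), Odc1 (0.41), Ap1s1 (0.40), Pak1 (0.40), Qdpr (0.39), Cnbp (0.39), Arf1 (0.35) and Emc8 (0.35). Nnat, which encodes the membrane protein neuronatin, was at 2855 CPM in Avp, 734.5 in reference and 1129 in Vip cells, and Odc1, the first enzyme of polyamine synthesis, was at 637.8, 228.9 and 419.7 CPM.

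Oxt, the gene of oxytocin and the neighbour of Avp on the same chromosome, had the highest correlation, but its level was very low. It ran from 0 to 79.9 CPM in Avp cells with a median of 1.42, and 16 of 95 cells reached 10 CPM. Pooled Oxt was 5.98 CPM in Avp, 0.438 in reference and 0.814 in Vip cells. For every 1000 Avp reads an Avp cell had a median of 0.456 Oxt reads, with a range of 0 to 22.4, and the count was above 10 in 3 cells. A read of Oxt was found in 18.4% of reference and 8.33% of Vip cells. Avp lies at chr2:130580620-130582554 on the minus strand and Oxt at chr2:130576173-130577054 on the plus strand (GENCODE M21, GRCm38). Their transcripts share an identical coding run of 127 bases, most of it in exon 2 (125 bases, at chr2:130581133-130581257 in Avp and chr2:130576591-130576715 in Oxt) and the first 2 bases in exon 1. A second shared run has 23 bases, so 27.9% of the Oxt transcript lies in these 2 runs. The long run, in the part that encodes neurophysin, is shown because short reads from it match both genes:
shared run of Avp and Oxt: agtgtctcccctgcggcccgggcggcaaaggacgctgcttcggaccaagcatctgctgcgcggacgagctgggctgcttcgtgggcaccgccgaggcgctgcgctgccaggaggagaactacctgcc
The labels do not say how such reads were placed, and their part in the Oxt counts was not tested.

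**Figure D4:**
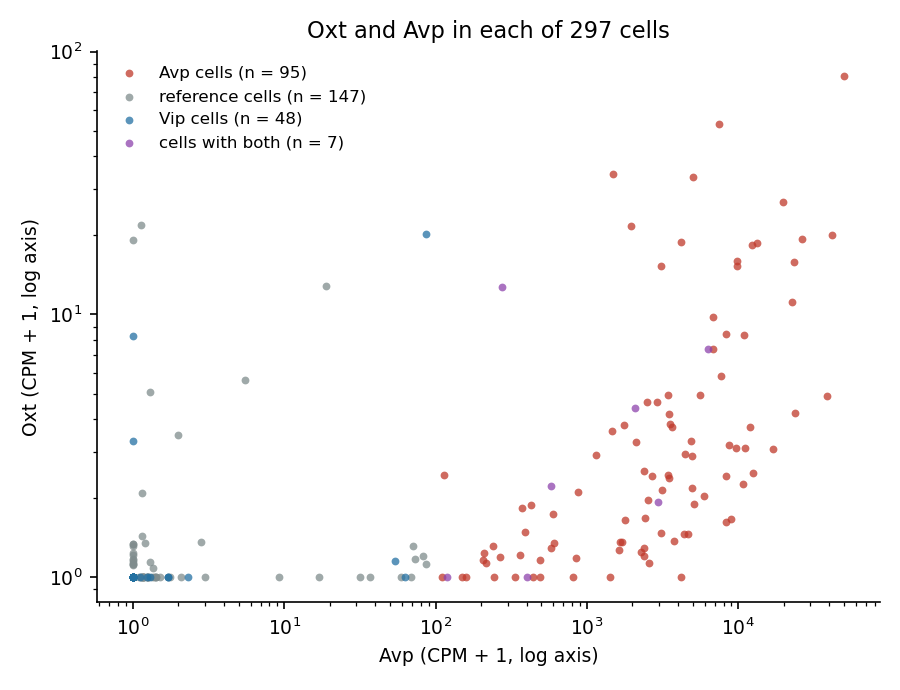
Oxt (y axis) against Avp (x axis) in each of 297 cells, as CPM plus 1 on log axes, coloured by class. Oxt in Avp cells climbs with Avp but stays at or below 79.9 CPM.

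Avp and Prok2 are known clock-controlled genes, and their promoters are shown because both hold an E-box. Promoters (250 bases before to 50 after the start, RefSeq, GRCm38.p6) were found for 21 of 24 genes: Avp, Oxt, the 4 markers and the genes chosen below as higher in Avp cells; Creb3l1 was among those without an entry. They were searched on both strands, after expression values had been seen, for the E-box CACGTG, the related CACGTT, the cyclic AMP element TGACGTCA, its core TGACG, which the longer element contains, and the D-box TTATGTAA. CACGTG was found in Avp (139 bases before the start), Prok2 (135 bases before) and Slc12a7, and CACGTT in Avp alone. TGACG was found in Fbxl21, BC030500 and Slc2a13, and the 2 other motifs in none. Of all 32851 promoters in the table, 7.15% hold CACGTG, 4.69% CACGTT, 1.79% TGACGTCA, 20.8% TGACG and 0.938% TTATGTAA. These shares are per promoter, whereas a gene above was counted with a motif in any of its promoters (26 promoters for 21 genes). Shares per gene, which are the like measure, are given after the sequences. Capitals mark CACGTG and CACGTT in the 250 bases before the start of Avp (chr2:130582589-130582838, minus strand) and Prok2 (chr6:99726393-99726642, minus strand):
Avp: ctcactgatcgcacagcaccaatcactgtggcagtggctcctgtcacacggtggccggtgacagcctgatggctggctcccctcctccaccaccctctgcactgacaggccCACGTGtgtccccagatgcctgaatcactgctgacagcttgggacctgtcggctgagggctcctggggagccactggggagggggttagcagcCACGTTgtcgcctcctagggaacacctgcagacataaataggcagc
Prok2: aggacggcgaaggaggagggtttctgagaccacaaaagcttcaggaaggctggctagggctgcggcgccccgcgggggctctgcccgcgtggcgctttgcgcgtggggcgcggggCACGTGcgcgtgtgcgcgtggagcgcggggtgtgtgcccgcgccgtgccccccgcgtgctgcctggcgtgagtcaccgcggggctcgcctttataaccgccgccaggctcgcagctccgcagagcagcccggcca
Among genes with a promoter entry, 418 at least 2-fold higher in Avp cells and 6773 tested, CACGTG was present for 14.6% of the higher and 12.5% of the tested genes. The other 4 motifs had lower shares in the higher genes: 6.22 against 6.41% for CACGTT, 1.68 against 4.13% for TGACGTCA, 33.01 against 39.4% for TGACG and 0.239 against 0.650% for TTATGTAA.

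Across the transcriptome, 6.16% of 8813 genes were at least 2-fold higher in Avp than in reference cells, and 805 genes (9.13%) at least 2-fold lower. A gene was tested with at least 20 pooled CPM in one of the classes, and was counted when the pooled ratio, the ratio of means over cells and the ratio without the top cell of each class all passed 2-fold. Of the genes past 2-fold 40.28% were higher, 44.28% by the ratio of means over cells alone, and 58.39% by the ratio of means of the deposited normalized values (1124 higher and 801 lower). With the normalized values the median log2 ratio of tested genes was 0.14 in place of -0.01. The genes ranked below by fold or by share also kept their direction in all 4 combinations of time and firing, and were read in at least 25% of cells of the class where they were higher. In bulk sums over a class, fewer cells with a gene and less RNA per cell cannot be told apart, so shares of cells are given too.

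Apart from Prok2, the 12 genes that stood highest by fold in Avp cells were not among the 4 markers. Grin2c, the GluN2C subunit of the NMDA receptor, ran from 0 to 2050 CPM in Avp cells and reached 10 CPM in 38 of 95, against 8 of 147 reference cells (5.44%) and 0 of 48 Vip cells (exact interval up to 7.40%). Its pooled level was 189.8 CPM in Avp, 9.72 in reference and 0.0135 in Vip cells, a 17.8-fold difference from reference cells. Over the 4 combinations of time and firing, whose common direction the ranking required, the log2 ratio of Grin2c ran from 2.13 in day silent to 7.08 in day active cells. Fbxl21, an F-box protein that acts on cryptochromes, reached 10 CPM in 58 of 95 Avp cells (61.1%) and 39 of 147 reference cells (26.5%). Its pooled level was 307.1 against 40.2 CPM, 7.49-fold, and its ratio was nearly the same in the 4 combinations (2.71 to 3.59). In Vip cells Fbxl21 was at 61.9 CPM.

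Pros1, which encodes the secreted protein S, was at 349.1 CPM in Avp, 37.4 in reference and 65.6 in Vip cells. Slc12a7, a potassium chloride cotransporter, was at 113.5, 9.38 and 32.8 CPM. Fam122b was at 122.4, 8.97 and 3.39 CPM, and Dennd2d, whose protein holds a DENN domain, at 28.04, 3.27 and 0.925 CPM. These 4 genes were also higher than in Vip cells, with log2 ratios of 1.76 to 4.81. Sh2d4b (24.3, 1.36 and 18.9 CPM), Ammecr1 (24.4, 2.24 and 13.3 CPM), Ccdc109b (137.4, 19.7 and 103.4 CPM), which encodes a subunit of the mitochondrial calcium uniporter, and Ccdc81 (65.9, 9.67 and 35.7 CPM) stood much closer to Vip cells. BC030500 (55.7, 7.74 and 14.4 CPM) and Prok2 complete the 12 highest.

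By the difference in the share of cells with a read, after thinning each cell to 3000000 reads, the widest were Nms, Tesc, Rora, Prex1, Chodl, Prr5l, Slc2a13, Fbxl21, Pros1 and C1ql3. Tesc, a calcium-binding protein, was read in 70.5% of Avp and 26.5% of reference cells and reached 10 CPM in 65.3% and 23.1%. Its pooled level was 213.8 CPM in Avp, 37.7 in reference and 43.2 in Vip cells. Chodl, a membrane protein with a lectin domain, was at 630.6, 125.6 and 195.0 CPM, and Prr5l, a component of mTOR complex 2, at 128.3, 23.9 and 18.7 CPM. Slc2a13, a myo-inositol transporter, was at 262.9, 102.3 and 139.6 CPM. Prex1, an activator of Rac, was at 317.3, 82.7 and 261.4 CPM, and C1ql3, a secreted synaptic protein, at 128.8, 33.5 and 112.9 CPM, so these 2 were shared with Vip cells.

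**Figure D5:**
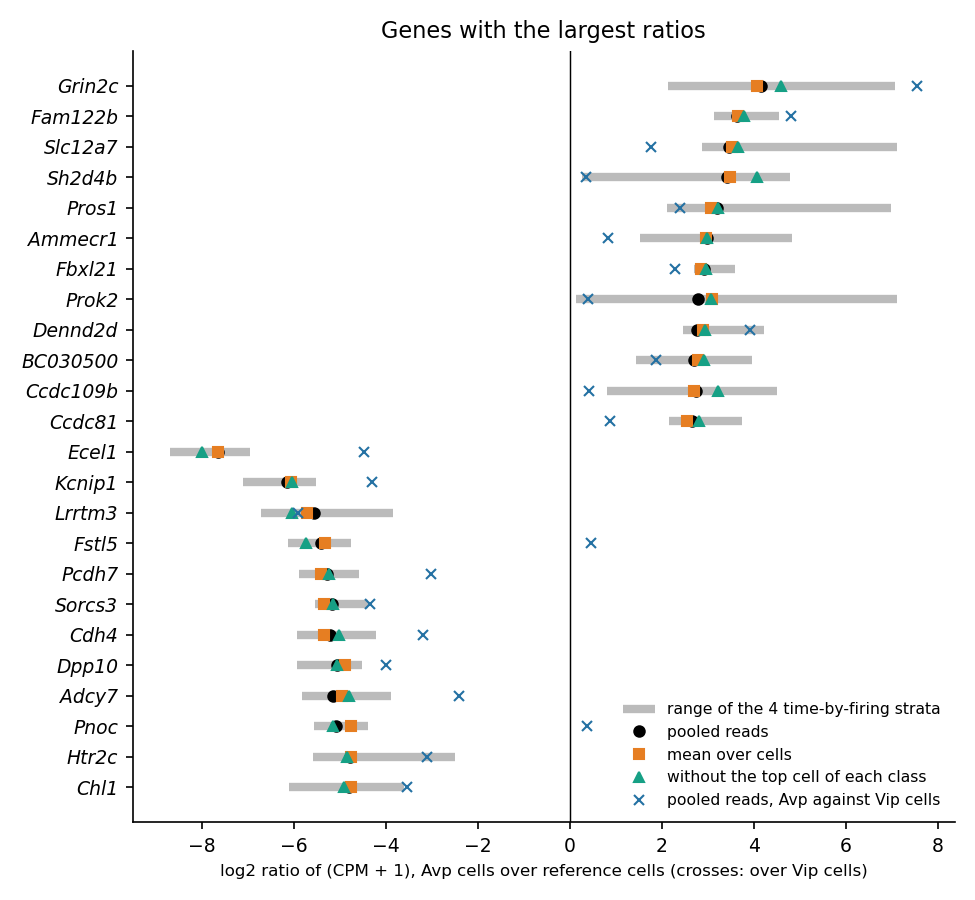
Log2 ratios of (CPM + 1) for the 12 genes ranked highest and the 12 ranked lowest in Avp against reference cells, as pooled reads (circles), means over cells (squares) and without the top cell of each class (triangles); grey bars span the 4 combinations of time and firing, and crosses give Avp against Vip cells. For Grin2c, Fam122b and Dennd2d the cross lies further right than the circle, and for Fstl5 and Pnoc it lies near 0.

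The genes that stood lowest in Avp cells were nearly absent from them and present in a minority of reference cells. Ecel1, a membrane metalloprotease, ran from 0 to 37.5 CPM in Avp cells and from 0 to 3594 CPM in reference cells. It reached 10 CPM in 1 of 95 Avp cells and 49 of 147 reference cells (33.3%), with pooled levels of 0.431 and 288.4 CPM, a log2 ratio of -7.66. Kcnip1 (0.0462 against 73.2 CPM) and Dpp10 (0.254 against 40.98 CPM), both partners of Kv4 potassium channels, were lower, as were the adhesion molecules Lrrtm3 (0.905 against 89.0 CPM), Pcdh7 (0.121 against 42.5), Cdh4 (0.0462 against 38.3) and Chl1 (0.327 against 36.3). Sorcs3 (0.373 against 48.3 CPM), Fstl5 (0.376 against 57.8), the adenylyl cyclase Adcy7 (0.0552 against 36.8), the peptide precursor Pnoc (1.91 against 97.7) and the serotonin receptor Htr2c (0.303 against 35.1) complete the 12. In Vip cells Fstl5 and Pnoc were also near 0 (0 and 1.24 CPM), whereas Lrrtm3 was at 114.1 CPM and Ecel1 at 31.04 CPM.

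By share of cells, the lower genes included Slc12a5, which encodes the neuronal chloride exporter KCC2. It reached 10 CPM in 15 of 95 Avp cells (15.8%) and in 90 of 147 reference cells (61.2%), with pooled levels of 19.5 and 138.8 CPM, and in Vip cells it was at 117.4 CPM. Its log2 ratio was -2.77 against reference and -2.53 against Vip cells. Spock3, a proteoglycan, reached 10 CPM in 5.26% of Avp and 47.6% of reference cells (6.05 against 183.1 CPM, and 280.5 CPM in Vip cells). The calcium sensor Vsnl1 (11.6% against 49.7% of cells), the kinase Matk (17.9% against 64.6%), Ly6e (19 of 95 against 93 of 147 cells), the squalene synthase Fdft1 (18.9% against 63.3%), Tmem91 (8.42% against 54.4%), the urea cycle enzyme Ass1 (3.16% against 40.1%) and Clu, which encodes clusterin (23.2% against 72.8%), were alike in this, with Lrrtm3 as the tenth. Fewer genes were detected per Avp cell (4247 against 4867), which moves the same way as these shares; its part in them was not tested.

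RNA of microglia and astrocytes moved with the classes as well, while that of oligodendrocytes differed little. Summed oligodendrocyte markers passed 100 CPM in 43.2% of Avp and 48.3% of reference cells. Of the 6 measured, 3 were higher in pooled level, with a median log2 ratio of -0.05. Summed microglia markers passed 100 CPM in 30.5% of Avp and 43.5% of reference cells, and 10 of 11 were lower in Avp cells in pooled level, with a list median from -3.66 in day silent to 1.31 in night silent cells and single cells from 0 to 21568 and 35333 CPM in sum. Summed astrocyte markers passed 100 CPM in 44.2% of Avp and 63.95% of reference cells. Of the 12 markers 10 were higher in pooled level and 7 in all 3 ratios. However, 3 of the 12 reached 5 CPM through the Avp class alone and so had to be higher. The list median ran from -1.97 in night active to 2.09 in day active cells. Of all genes measured, 47.77% were higher in pooled level. The sums ran from 0 to 11516 CPM in Avp and from 0 to 3014 CPM in reference cells. Without the cells over 100 CPM of astrocyte markers, Ecel1 had a log2 ratio of -7.02, Slc12a5 -2.28, Clu -2.38 and Ass1 -3.83. Without those over 100 CPM of microglia markers the same ratios were -7.44, -2.65, -2.61 and -3.92. Reference cells also included 29 with 10 CPM or more of Slc17a6, a gene of glutamate neurons, and without them these ratios were -7.88, -2.74, -2.48 and -3.78.

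The gene lists below are read against all 11986 genes measured at 5 CPM or more in either class, of which 5726 (47.77%) were higher and 6260 lower in Avp cells, 7.03% were higher and 13.1% lower by 2-fold or more in all 3 ratios, and the median log2 ratio was -0.04. A member that reached 5 CPM through the reference class alone had to be lower, and such members are counted for each list in which they are 3 or more. The transcription factor, subtype, activity, vesicle and transmitter lists held 1 such member each: Dlx1, Grp, Nptx2, Syt7 and Slc17a6. A member that reached 5 CPM through the Avp class alone had to be higher. The peptide, receptor, activity, folding and potassium channel lists held 1 such member each, with Oxt, Grpr, Fosl2 and Creb3l2 among them.

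Among 16 measured SCN neuropeptides other than Avp and Vip, 12 were lower and 4 higher in Avp than in reference cells, with 11 lower by 2-fold or more in all 3 ratios and a median log2 ratio of -2.86. Of the 16, 5 were measured through the reference class alone, and the median ran from -4.22 to -1.72 over the alternatives. Nts (neurotensin) was at 3.54 CPM in Avp cells with a log2 ratio of -6.20 to reference cells, Gal (galanin) at 3.11 and 133.6, Cartpt at 9.09 and 267.5, and Pomc at 15.5 and 304.8 CPM. Nts had its reads in few cells, with 1 of 95 Avp and 13 of 147 reference cells at 10 CPM, and in day active cells its log2 ratio was 0.09. Grp, the peptide of a core cell group, was at 0.0328, 23.3 and 110.2 CPM in Avp, reference and Vip cells. Prok2, Nms and the low Oxt were the peptides higher by 2-fold or more.

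Peptide receptors split evenly, with 4 of 8 measured higher and 4 lower; 3 of the 8 were measured through the reference class alone. Adcyap1r1, the receptor of the retinal peptide PACAP, was at 9.84 CPM in Avp and 100.4 in reference cells, and reached 10 CPM in 6.32% and 42.2% of cells. Sstr2 (0.149 against 11.5 CPM) and Nmur2 (0.0239 against 9.25 CPM), receptors of somatostatin and neuromedins, were lower, and Grpr, the receptor of gastrin-releasing peptide, was higher (12.4 against 0.828 CPM) from 5 cells at 10 CPM or more. Outside the ranking, and chosen after values were seen, the VIP receptor Vipr2 was at 400.2 CPM in Avp, 117.6 in reference and 201.6 in Vip cells, and reached 10 CPM in 53 of 95 Avp cells. The prokineticin receptor Prokr2 was at 336.8, 120.2 and 200.1 CPM. In night active cells neither was higher: the log2 ratio was -0.08 for Vipr2 and -1.15 for Prokr2.

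Of 24 clock genes 17 were higher and 7 lower in Avp than in reference cells, with 6 higher by 2-fold or more in all 3 ratios and none lower by as much; the median log2 ratio was 0.67. The list's median ran from 1.21 in day silent to -0.13 in night active cells, so its direction turned between combinations. Fbxl21, Hlf (79.9 against 17.1 CPM), Rorb (403.8 against 111.1) and Rora (678.8 against 193.3) led. Rora and Rorb encode nuclear receptors that activate Arntl, and reached 10 CPM in 71.6% and 69.5% of Avp cells against 34.01% and 36.7% of reference cells. Nr1d1, the repressor of the same gene, was at 756.6 against 330.3 CPM and Arntl at 236.4 against 90.3 CPM, while Per1 was at 48.4 against 64.6 CPM. Against Vip cells, 11 of 24 were higher, 2 were lower by 2-fold and the median was -0.07. Fbxl21 (log2 ratio 2.29) and Rorb (1.51) were the 2 higher by 2-fold. Of all 11739 genes measured against Vip cells, 6328 were higher, and the median was 0.09. By 2-fold, 1860 of them were higher and 1127 lower.

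SCN transcription factors were higher in Avp than in reference cells in 12 of 13, with a median log2 ratio of 0.69, though 2 of the 12 passed 2-fold: Rora and Rorb. Nr2f2 followed at 37.9 against 19.2 CPM, and Lhx1, a factor of SCN development, at 53.4 against 36.1 CPM, though with higher cell numbers the log2 ratio of Lhx1 was -0.64. Dlx1, a factor of forebrain GABA neurons, was the member that was lower (2.69 against 26.6 CPM). It was measured through the reference class alone, so it had to be lower. Of 14 genes that name SCN neuron subtypes 6 were higher and 8 lower, led by Nms and C1ql3 among the higher and by Grp and Nov among the lower. Nov was at 7.73, 37.5 and 227.2 CPM in Avp, reference and Vip cells, Calb2 (calretinin) at 59.8, 168.2 and 342.0, and Synpr (synaptoporin) at 76.6, 180.7 and 1059 CPM, so these 3 were lowest in Avp and highest in Vip cells.

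Activity-induced genes were lower in Avp than in reference cells in 17 of 25, with 6 lower and 1 higher by 2-fold and a median log2 ratio of -0.21. The list's median ran from -1.56 in day active to 0.39 in day silent cells, so its direction turned too. Arc, which shapes synaptic receptor traffic, reached 10 CPM in 6 of 95 Avp and 54 of 147 reference cells (31.5 against 305.5 CPM pooled), and in Vip cells it was at 493.1 CPM. In night silent cells Arc was higher in Avp cells (log2 ratio 0.84), and in the other combinations it was lower. Nptx2 (0.0224 against 7.36 CPM) and the transcription factor Egr4 (87.3 against 307.6) were lower, and Fosl2 was higher (24.5 against 4.66 CPM) except in night silent cells. Fos itself was at 1829 CPM in Avp, 2480 in reference and 2931 in Vip cells, and Egr1 at 970.5, 1895 and 3568 CPM. Against Vip cells 9 of 25 were lower by 2-fold and none higher by as much. Of all 11739 genes measured against Vip cells, 1127 were lower and 1860 higher by 2-fold. Active cells make up 45 of 95 Avp, 81 of 147 reference and 37 of 48 Vip cells.

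RGS genes other than Rgs16 were mostly lower. Of 14 measured, 12 were lower in Avp than in reference cells, 9 by 2-fold, and the median log2 ratio was -1.43; 3 of the 14 were measured through the reference class alone. Rgs4 was at 25.8 against 369.5 CPM and reached 10 CPM in 6 of 95 Avp and 68 of 147 reference cells, Rgs10 was at 24.9 against 102.8 CPM and Rgs11 at 43.98 against 152.8 CPM. Rgs14 (0.263 against 20.4 CPM) reached 10 CPM in 8 of 147 reference cells. Rgs4 was also low in Vip cells (14.3 CPM).

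Genes of dense-core vesicles were mixed: 10 of 21 were higher and 11 lower, with a median log2 ratio of -0.03. Secretogranin Scg2 was higher (8954 against 3740 CPM), with a log2 ratio of 0.12 to Vip cells (8228 CPM), while the monoamine transporter Slc18a2 (33.3 against 98.5), Qpct (61.3 against 152.8), which modifies peptide ends, and Syt7 (2.17 against 7.09) were lower. Genes of protein folding in the endoplasmic reticulum were higher in 14 of 24, a share (58.3%) not far from that of all genes, with a median of 0.12 that was -0.02 with higher cell numbers, and 4 passed 2-fold: Ern1 (26.4 against 6.499 CPM), Eif2ak3 (42.3 against 7.56), Creb3l2 (15.04 against 3.59) and Creb3l1. The first 2 encode sensors of unfolded protein; each of these 4 was at 10 CPM in at most 28.4% of Avp cells.

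Signalling and channel genes were mixed. Of 35 genes of cyclic AMP and calcium signalling 16 were higher and 19 lower (median -0.05, which ran from -0.41 to 0.28 over the alternatives), 3 of them measured through the reference class alone, with Adcy7, Camk4 (1.27 against 9.56 CPM) and Pde1c (1.27 against 11.7) lower and Pde10a higher (184.4 against 56.0). Of 21 potassium channel genes 13 were lower, 5 by 2-fold (median -0.35), and 3 were measured through the reference class alone; Kcnk3 was at 2.41 against 21.4 CPM, Kcna6 at 1.45 against 15.02, Kcnq5 at 0.00597 against 7.70 and Kcnh1 at 7.63 against 33.1. Of 10 genes of GABA and glutamate transmission 6 were higher (median 0.12, but -0.16 with Avp cells of 1000 CPM or more). Slc17a6 and Slc12a5 were lower, Slc6a11, a GABA transporter, was higher (37.4 against 13.8 CPM), and Gad1 was at 1205 against 1129 CPM, a difference whose sign turned against reference cells without Slc17a6 and without cells with microglia markers. Of 8 neuron markers 5 were lower, with Rbfox3 (7.62 against 31.6 CPM) and Tubb3 (145.2 against 310.9) lower by 2-fold.

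Against the 48 Vip cells, 1062 of 8707 genes (12.2%) were at least 2-fold higher in Avp cells and 687 (7.89%) at least 2-fold lower by the same 3 ratios. Of the genes ranked by fold or by share, Grin2c (log2 ratio 7.56), Fam122b (4.81), Dennd2d (3.92) and Prr5l (2.71) stood highest against Vip cells. Lrrtm3 (-5.92), Spock3 (-5.32), Ecel1 (-4.48), Sorcs3 (-4.35) and Kcnip1 (-4.31) stood lowest. The Avp cells enter both comparisons, so the ratios against reference and Vip cells share those cells.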

How the data were processed

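The data are single-neuron RNA libraries made with Nextera XT from cytoplasm drawn by patch pipette, per the labels' protocols. STAR, DESeq2 and the build GRCm38.p4 appear in the submitters' processing notes without roles or versions. The authors deposited whole-number read counts for 22800 gene symbols in 298 cells, and a second table of normalized signal values that equals those counts divided by 1 factor per cell (relative tolerance 1e-06). A log-scale table was not used here. The sources used here do not say how reads were assigned to genes or whether strand was used.

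CPM were computed from the deposited counts, and cells were classed by Avp and Vip at 100 CPM. The 2 near-identical libraries S70 and S71 were averaged. Genes were compared on pooled CPM, means over cells and pooled CPM without the top cell of each class, with a pseudocount of 1 CPM. Genes with at least 20 CPM in one class were tested for a 2-fold ratio in all 3, and list members were measured at 5 CPM. Shares of cells with a read used counts thinned to 3000000 reads per cell, and no cell was shallower. The text names the 12 genes highest and lowest by the smallest of the 3 ratios, the 10 by share of cells in each direction, and the leading members of each list, the first 2 rules among genes with the same direction in all 4 combinations of time and firing and a read in at least 25% of cells of the higher class. Intervals are exact Poisson or exact binomial at 95%, and cover counting error only; reads are not counted as molecules. The scripts were tested on simulated data. No test across cells was made, since the labels name no animals. The members and gene lists were chosen with earlier results of these data known. Python 3.11.15, numpy 2.4.6, pandas 2.3.3, scipy 1.17.1 and matplotlib 3.10.9 were used. Alternatives covered the thresholds, pseudocount, filter, scaling, top cells, strata, cell numbers and cells with glial markers.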

Additional observations from a re-analysis of the deposited data

Results flagged for a closer look

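The only label group of 4 to 10 cells was that of the 7 day depolarized cFOS- cells. Of the 5 markers examined there, 2 had a value far from the others, both in the cell S349. The 7 cells mix 4 Avp, 2 reference and 1 Vip cell. Avp levels chose these classes, so the spread of Avp there reflects that choice and is not a result. The highest Avp value there was 9756 CPM and the next 3668 CPM, a gap of 0.624 of the range against a limit of 0.568. The highest Rgs16 value was 1037 CPM and the next 437.7 CPM, a gap of 0.578 of the range. For normally distributed values chance gives such a gap in about 1 in 20 groups. The CPM of these cells are not spread in that way, so that rate need not hold for them.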

How the results depend on the processing

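The ratios of 100 genes were recomputed under 15 alternatives, and 94 kept their sign in all of them, as did all 41 genes ranked by fold or share, for which the ranking itself fixed the sign with means over cells, without the top cell and over the 4 combinations. Signs reversed for Sst, from -1.25 to 0.036 with lower cell numbers and 1.42 without cells with astrocyte markers, for Creb3l1, from 1.44 to -0.13 with higher cell numbers, and for Nmur2, from -3.32 to 0.039 without cells with astrocyte markers. Below 2-fold, Lhx1 turned from 0.55 to -0.64 with higher cell numbers and Gad1 from 0.09 to -0.14 against reference cells without Slc17a6 and to -0.02 without cells with microglia markers; the cause was not tested. Slc17a6 was at 0.88 against reference cells without Slc17a6, which follows from that choice. The median of the receptor list turned from -1.08 to 0.16 that of the subtype list from -0.42 to 0.12, that of the neuron markers from -0.23 to 0.12 and that of the astrocyte list from 1.15 to -0.11 without cells with astrocyte markers. The higher genes, 6.16% of those tested, became 12.75% with normalized values (1 ratio in place of 3), 3.17% with a pseudocount of 10, 11.81% without cells with astrocyte markers, 7.03% with a filter of 5 CPM (842 genes) and 3.90% without a filter (890 genes of 22798). The 805 lower genes, 9.13%, became 13.84% without the top cell of each class and 16.21% with the mean of the 4 combinations. Both used 1 ratio in place of 3, so the looser rule and the setting cannot be told apart. With a pseudocount of 10 the lower genes were 5.61%. They were 13.11% with a filter of 5 CPM (1571 genes) and 8.47% without a filter (1931 genes). With an Avp threshold of 1000 CPM the share of Avp cells was 23.91% of all, 27.21% of day, 21.12% of night, 18.79% of active and 30.51% of silent cells. The alternatives on Slc17a6 and astrocyte markers were chosen after seeing the data. No paired analysis was possible because replicate numbers only name cells in accession order and no animal or slice is labelled. Levels of a few CPM or less rest on few reads, and differences between classes and between animals or slices cannot be told apart.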
